A study of Mus musculus with 48 samples.

Results

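The 9 genes described here write, remove or read methyl groups on cytosine in DNA. They are the writers Dnmt1, Dnmt3a and Dnmt3b with the recruiting factor Uhrf1, the erasers Tet1, Tet2 and Tet3, and the readers Mbd1 and Mbd2. They were chosen by name from the 24421 gene symbols of each deposited table, without a cut on a measured value but with earlier results of these data known. Every symbol was present in all 6 tables.

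The study profiled astrocytes, glial cells that support neurons and their synapses, by bulk RNA-seq in 48 mouse libraries of 15 groups. In its developmental arm, astrocytes of cortex, hippocampus and olfactory bulb were taken at postnatal days 1, 7 and 14 (P1, P7, P14), with 3 libraries per group and 4 for cortex P14. In its genotype arm, P28 astrocytes labelled Gabbr1 control or Gabbr1 cKO, a conditional knockout of a GABA-B receptor subunit, came from cortex (4 control and 4 cKO libraries), hippocampus (2 and 4) and olfactory bulb (3 and 3). The labels give tamoxifen as the treatment of all hippocampus and olfactory bulb P28 libraries, control and cKO alike, and of the cortex P28 libraries labelled in that same style. They name no strain, sex, Cre driver, sorting step or reporter, and give no genotype for the developmental animals. No label says that libraries of a group came from separate animals, so each p-value measures only the spread between these libraries. Each region and arm was scaled in a table of its own, and tests were made within a table.

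Cytosine methylation at CpG sites is copied onto the new DNA strand after replication by DNMT1, which UHRF1 guides to half-methylated sites. DNMT3A and DNMT3B set methyl groups on unmethylated DNA, while the TET enzymes oxidise 5-methylcytosine, the first step of its removal. MBD proteins bind methylated CpG and bring in repressor complexes, MBD2 as part of the NuRD chromatin remodeller, and in the postnatal brain DNMT3A also methylates cytosines outside CpG in neurons.

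The maintenance pair Dnmt1 and Uhrf1 shared 8 letters of promoter sequence, shown here because both genes had their highest means at P1 in every region. The 8 letters TTTCGCGC, a spelling of the site bound by E2F factors (transcription factors of the G1 to S transition), were searched on both strands of RefSeq promoters (GRCm38.p6, 250 bases before to 50 after a start). They occurred in 0.323% of 32851 promoters of that length and, counted by gene, in 101 of 27025 genes (0.374%). Promoters of 7 of the 9 genes (all but Mbd1 and Mbd2, which were left out here) were read, and the letters occurred in Dnmt1 and Uhrf1 and in none of the other 5. Among those 5, Tet2 and Tet3 also had their highest means at P1 in every region. Of 13 S-phase genes with a promoter in the table, Mcm5, Mcm6 and Mcm7 held them. The stretches below carry the match in capitals, 5′ to 3′ on the gene's strand. For Dnmt1 the match reads as the reverse complement and lies within an annotated exon, so 30 bases are shown (chr9:20952824-20952853, minus strand). For Uhrf1 the match lies outside annotated exons, 177 bases before the next one, and 98 bases are shown (chr17:56304083-56304180, plus strand). A match of letters is a description of the sequence and not a binding site.
Dnmt1: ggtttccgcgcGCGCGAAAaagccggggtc
Uhrf1: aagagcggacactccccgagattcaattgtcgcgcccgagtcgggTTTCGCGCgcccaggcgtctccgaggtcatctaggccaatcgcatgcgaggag

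The promoters of the DNA methylation genes varied in CpG, the dinucleotide these enzymes act on. The Dnmt1 and Uhrf1 windows with the match each held 33 CpG in 300 bases, against a median of 7 over all windows (25th to 75th percentile, 3 to 20). The Tet2 window held 57 CpG, more than in 99.8% of windows, and the most CpG-rich of 3 Dnmt3a windows held 47. The Tet1 window held 17 and the Tet3 window 22. The other Dnmt1 windows, at further annotated starts, held 12 and 2, and the other Uhrf1 window held 12.

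Depth differed by age and table, from 1773226 to 15008466 reads assigned to genes per library, and was lowest at P14 in olfactory bulb (1773226 to 2669394 reads). All 10 astrocyte markers were detected in every group, and from P1 to P14 their summed level in cortex went from between 21366 and 28242 normalized reads to between 496464 and 554981 (9 of 10 called higher). It went from between 13833 and 15917 to between 427309 and 461104 in hippocampus, and from between 5043 and 7167 to between 124253 and 141312 in the olfactory bulb (10 of 10 higher in each). Of 10 neuron markers, 8 were lower at P14 in cortex and 8 in hippocampus, while 7 were lower and 1 higher in the olfactory bulb, and none was at 0 in a whole group. Their sum ranged over 7485 to 10650 at P1 and 287 to 545 at P14 in cortex, over 6034 to 8050 and 444 to 635 in hippocampus, and over 14725 to 18290 and 1968 to 3188 in the olfactory bulb. The neuron sum was above the astrocyte sum in every P1 library of the olfactory bulb. The sex of the animals is not labelled. The Y-linked gene Ddx3y was at no more than 0.629 normalized reads in cortex P1 and P7 libraries and in P14 replicates 1 and 2. It was at 326 and 340.1 in cortex P14 replicates 3 and 4. Without those 2 libraries 6 of the DNA methylation genes were again called between P14 and P1. In hippocampus P1 replicate 1, P7 replicate 2 and P14 replicates 1 and 2 held 328, 383, 499 and 398 of Ddx3y. In the olfactory bulb P1 replicate 2, P7 replicate 2 and P14 replicates 1 and 2 held 309, 339, 755 and 691. The other developmental libraries of these regions held no Ddx3y read. The part of sex in their age differences was not tested. A pair of libraries stood apart by the share of reads from the ribosomal precursor gene Rn45s: hippocampus P28 cKO replicate 2 (0.594%) and olfactory bulb P28 control replicate 2 (0.476%), against 13.7% to 38.0% in the other 46. Of the 6 hippocampus P28 libraries only that cKO replicate held high counts of the female-specific RNA Xist (11972 normalized reads, at most 7.70 in the others).

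From P1 to P14, 6 of the 9 genes changed in each region by limma at a Benjamini-Hochberg adjusted p under 0.05 over all genes tested. In cortex 1 was higher and 5 lower of 8 tested; of all genes tested there 64.4% passed, 24.0% higher and 40.3% lower. In hippocampus 2 of 9 were higher and 4 lower, against 49.5% of all genes (21.0% and 28.5%). In the olfactory bulb 3 of 9 were higher and 3 lower, against 56.1% (24.8% and 31.4%). With 8 or 9 genes tested, these shares are near the background, so the number of calls is not a result about the DNA methylation genes. Dnmt1, Tet2 and Tet3 fell and Mbd2 rose in all 3 regions. The median log2 difference of all tested genes was -0.27 (cortex), -0.29 (hippocampus) and -0.24 (olfactory bulb), and TMM scaling moved the cortex median to 0.00. With TMM the cortex calls over all genes split into 3801 higher and 3655 lower, against 2843 and 4765 with the deposited scaling.

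**Figure D1:**
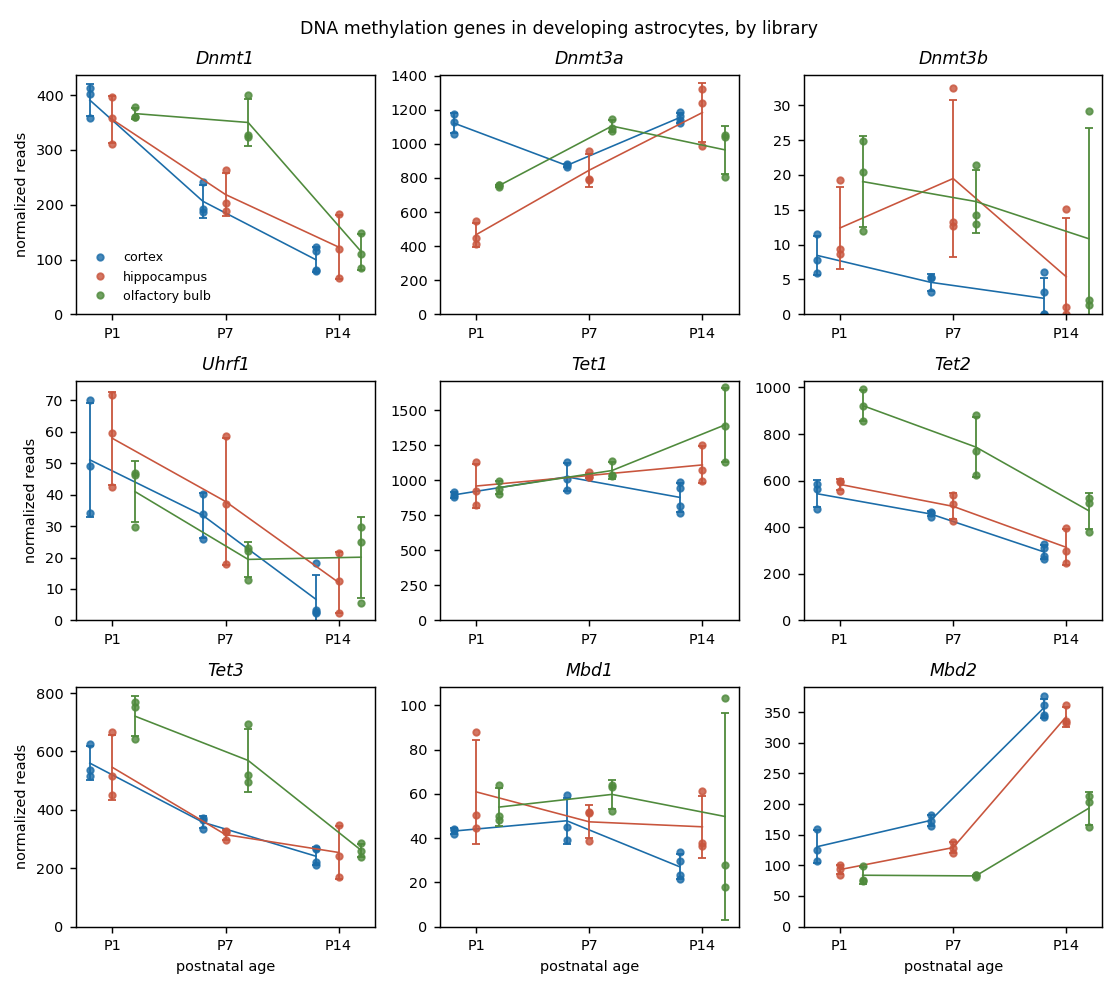
Normalized reads of each gene (y axis, starting at 0) at P1, P7 and P14 (x axis) in cortex (blue), hippocampus (red) and olfactory bulb (green). Points are libraries, lines join the means and bars are 1 SD, cut at 0; regions come from separately scaled tables. Dnmt1, Tet2 and Tet3 fall and Mbd2 rises in every region, while Dnmt3a takes a different course in each.

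Dnmt1, the maintenance methyltransferase (chr9:20907209-20959888, minus strand, GRCm38), fell in all 3 regions, to 0.255 (cortex), 0.345 (hippocampus) and 0.312 (olfactory bulb) of its P1 mean. Cortex libraries held 413, 358 and 402 normalized reads on day P1, then 186, 192 and 241 on P7, then 79.1, 81.1, 123 and 115 on P14. In hippocampus the P1 libraries held 311, 397 and 358, the P7 libraries 263, 203 and 189, and the P14 libraries 183, 119 and 66.3. In these 2 regions the 3 ages did not overlap. In the olfactory bulb P1 (378, 361 and 360.1) and P7 (323, 327 and 400.5) overlapped, and every P14 library was lower (149, 84.1 and 109.7). Between P1 and P14 Dnmt1 differed by -1.99 ± 0.17 (log2, SE; limma adjusted p = 2.6e-07) in cortex, by -1.64 ± 0.31 (9.7e-04) in hippocampus, and by -1.71 ± 0.20 (4.0e-05) in the olfactory bulb. At P7 it was already lower than at P1 in cortex (-0.93 ± 0.18, limma adjusted p = 0.0014), while olfactory bulb moved by -0.07 ± 0.20 (limma adjusted p = 0.892); whether the regions differ in timing was not tested. In bulk RNA, fewer cells of a type and less RNA per cell cannot be told apart.

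Uhrf1, the factor that recruits DNMT1 to replicated DNA (chr17:56303321-56323486, plus strand), was a low-count gene with 2 to 247 reads per developmental library. In cortex it measured 70.2, 34.0 and 49.0 normalized reads at P1, 26.0, 40.2 and 34.0 at P7, and 2.65, 2.52, 3.47 and 18.2 at P14. In hippocampus it measured 71.6, 59.7 and 42.4 at P1 against 21.5, 2.21 and 12.5 at P14. Neither region's P1 and P14 libraries overlapped, and the log2 difference was -3.12 ± 0.53 (SE; limma adjusted p = 1.6e-04) in cortex and -2.54 ± 0.69 (0.0096) in hippocampus. Without cortex P14 replicate 4, the high library, the cortex value was -3.70, and without hippocampus P14 replicate 2, the lowest, the hippocampus value was -1.72. In the olfactory bulb the P1 libraries (29.8, 46.2 and 46.9) and P14 libraries (29.8, 5.51 and 24.99) overlapped at their ends, and the difference of -1.25 ± 0.57 missed the threshold (limma adjusted p = 0.0822). Without olfactory bulb P14 replicate 1 it was -1.66 and passed (limma adjusted p = 0.0294), and without replicate 2, the lowest, it was -0.54 (0.227).

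The S-phase genes of the same libraries are given beside this pair. Of 16 such genes, all 14 tested in cortex were lower at P14, as were 12 of 16 in hippocampus and 10 of 15 in the olfactory bulb; none was higher. Their summed level in cortex ranged over 1189 to 1433 normalized reads at P1, 1110 to 1190 at P7 and 448 to 599 at P14. The hippocampus ranges were 1671 to 2006, 804 to 1456 and 713 to 773. Those of the olfactory bulb were 1438 to 1639, 669 to 912 and 666 to 1012. The courses of these sums and of Dnmt1 differed by step. Mean sums in the olfactory bulb were 1510, 791 and 813 at P1, P7 and P14, and Dnmt1 means 366, 350 and 114. In cortex the mean sums were 1330, 1162 and 518, and Dnmt1 means 391, 206 and 99.5. In hippocampus they were 1804, 1131 and 740, and 355, 219 and 123. The part of dividing cells, and that of the falling neuron markers, in the Dnmt1 and Uhrf1 values was not tested. Within a library, the log2 ratio of Uhrf1 to Dnmt1 changed from P1 to P14 by -1.13 (cortex), -0.90 (hippocampus) and 0.46 (olfactory bulb); the groups overlapped in each, and exact two-sided permutation tests gave p = 0.171, 0.5 and 0.5 (adjusted over 6 ratio tests: 0.257, 0.5 and 0.5).

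Dnmt3a, the main de novo methyltransferase of the postnatal brain (chr12:3806007-3914443, plus strand), did not follow Dnmt1. In cortex it dipped: the P1 libraries held 1059, 1131 and 1178 normalized reads, the P7 libraries 879.9, 874 and 866, and the P14 libraries 1124, 1139, 1189.5 and 1166. In hippocampus it climbed from 446, 547 and 410.4 at P1 through 793, 787 and 958 at P7 to 988, 1324 and 1239.7 at P14, with no overlap between ages. In the olfactory bulb the P7 libraries (1096, 1075 and 1143) were the highest, above P1 (747, 759.6 and 757) and P14 (1042, 804 and 1049.6). From P1 to P7 it therefore fell in cortex (log2 difference -0.36 ± 0.08, SE; limma adjusted p = 0.0030) and rose in hippocampus (0.86 ± 0.16, 0.0025) and olfactory bulb (0.55 ± 0.13, 0.0195). The olfactory bulb call was lost when olfactory bulb P1 replicate 1, 2 or 3 or P7 replicate 1 or 2 was left out, with limma adjusted p from 0.0643 to 0.0759.

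Over the whole span to P14, Dnmt3a differed by 0.04 ± 0.07 (SE; limma adjusted p = 0.640) in cortex, by 1.34 ± 0.16 (3.0e-05) in hippocampus, and by 0.34 ± 0.13 (0.0385) in the olfactory bulb. The cortex value was 0.32 and passed under TMM scaling (limma adjusted p = 0.0019), and was -0.08 under quantile normalization. The olfactory bulb call was lost without P1 replicate 1, 2 or 3 or P14 replicate 1 or 3, at values from 0.28 to 0.35, and with no filter, only the 2 ages compared, or quantile normalization (0.21). From P7 to P14 Dnmt3a rose in cortex (0.40 ± 0.07, limma adjusted p = 5.3e-04) and hippocampus (0.48 ± 0.16, 0.0380), and in olfactory bulb it differed by -0.21 ± 0.13 (0.206). The hippocampus call was lost without P7 replicate 1 or 2 or P14 replicate 2 or 3, at values from 0.39 to 0.44. Under quantile normalization the hippocampus difference was 0.046 (limma adjusted p = 0.836) and the olfactory bulb one -0.50, which passed (0.0068). Exons of Dnmt3a share 133 bases (0.799%) with the antisense gene Dnmt3aos; whether reads were counted by strand is not given in the sources used here.

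Dnmt3b, the second de novo enzyme (chr2:153649450-153687730, plus strand), was near the floor of detection. It held 0 to 57 reads per developmental library and at most 32.5 normalized reads. In cortex its mean was 8.44 ± 2.84 (SD, n = 3) at P1, 4.59 ± 1.23 (n = 3) at P7 and 2.30 ± 2.91 (n = 4) at P14, below the minimum mean of 10 for testing. In hippocampus 1 of 3 P14 libraries held 15.05 and the others 1.10 and 0, and in the olfactory bulb 1 held 29.2 and the others 1.99 and 1.38. Neither region passed from P1 to P14 (-1.97 ± 0.93 and -1.69 ± 0.84, SE; limma adjusted p = 0.0986 and 0.109). Without the high library each passed: hippocampus P14 replicate 1 gave -3.12 and olfactory bulb P14 replicate 3 gave -2.85 (limma adjusted p = 0.0033 and 7.5e-04). Without hippocampus P14 replicate 3 the value was -1.12 (0.294), and without olfactory bulb P14 replicate 2 it was -1.02 (0.307).

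The balance between de novo and maintenance enzyme was higher in every P14 library than in any P1 library of its region. The log2 ratio of Dnmt3a to Dnmt1 within a library, which a library's scaling factor leaves almost unchanged, ran from 1.36 to 1.66 in the cortex libraries at P1, from 1.84 to 2.23 at P7 and from 3.27 to 3.81 at P14. The hippocampus ranges were 0.20 to 0.52, 1.59 to 2.33 and 2.43 to 4.20, and those of the olfactory bulb 0.98 to 1.07, 1.51 to 1.76 and 2.80 to 3.25. No ages overlapped in any region. The P14 minus P1 difference was 2.03 (cortex), 2.97 (hippocampus) and 2.05 (olfactory bulb); exact two-sided permutation tests gave p = 0.0571, 0.1 and 0.1, the smallest each design allows (adjusted over 6 ratio tests, 0.2 for each). Per kilobase of annotated exon, Dnmt3a made up 55.3% ± 2.5 (SD, n = 3) of the summed Dnmt1, Dnmt3a and Dnmt3b level at P1 and 83.3% ± 2.2 (n = 4) at P14 in cortex, 35.6% ± 2.3 and 80.1% ± 10.8 (n = 3 each) in hippocampus, and 45.9% ± 1.1 and 77.1% ± 3.0 (n = 3 each) in the olfactory bulb. In each P28 control library, which comes from a separate table, this share lay below every P14 library of its region. The P28 control means were 65.9% ± 6.8 (SD, n = 4) for cortex, 62.5% ± 2.5 (n = 2) for hippocampus and 68.8% ± 2.6 (n = 3) for olfactory bulb. The difference between P14 and P28 was not tested.

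**Figure D2:**
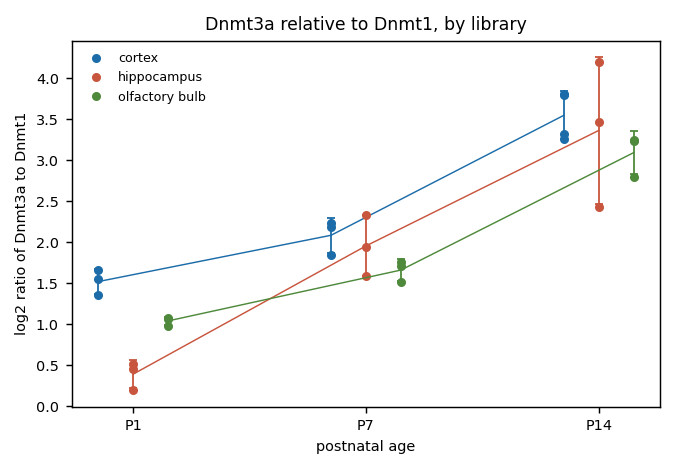
Log2 ratio of Dnmt3a to Dnmt1 normalized reads within each library (y axis) at P1, P7 and P14 (x axis) for the 3 regions. Points are libraries, bars are 1 SD around the mean. The ages do not overlap within any region, and the P14 libraries lie between 2.43 and 4.20.

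Among the erasers Tet2 and Tet3 fell in all 3 regions and Tet1 did not. The part of the falling neuron markers in the values and shares of the TET genes was not tested. Tet2, a TET enzyme without a CXXC DNA-binding domain of its own (chr3:133463679-133545139, minus strand), fell in every region between P1 and P14, by 0.88 to 0.98 (log2). Cortex libraries went from 566, 586 and 479 normalized reads at P1 through 464, 462 and 445 to 276, 263.5, 309.7 and 329 at P14. Hippocampus libraries went from 599, 557 and 595 through 501, 539 and 429 to 247, 297 and 398. Olfactory bulb libraries went from 856, 919.8 and 992 through 624, 729 and 879.8 to 382, 506 and 525. No P14 library reached a P7 or P1 library of its region. The differences, in that order of regions, were -0.88 ± 0.11 (SE; limma adjusted p = 7.7e-06), -0.92 ± 0.18 (0.0011) and -0.98 ± 0.17 (4.8e-04). An antisense gene, Gm42567, shares 43 bases (0.255%) of its exons.

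Tet3, the member best known for oxidising the paternal genome in the zygote and expressed in many neurons (chr6:83362373-83459084, minus strand), fell as well. The cortex P1 libraries measured 626, 517 and 537 normalized reads, the P7 libraries 372, 366 and 334, and the P14 libraries 219.8, 210.0, 265 and 269. In hippocampus Tet3 went from 450.5, 668 and 517 through 327, 323 and 295 to 171, 241 and 349, so that P7 and P14 overlapped there. Olfactory bulb levels were 753, 641 and 768 at P1, falling to 519.9, 495 and 693 and then to 239, 260.5 and 285. The P14 against P1 difference was -1.22 ± 0.12 (SE; limma adjusted p = 8.6e-07) in cortex, then -1.14 ± 0.24 (0.0020) for hippocampus and -1.46 ± 0.16 (2.1e-05) for olfactory bulb. From P1 to P14 the Tet2 and Tet3 falls kept their calls in all 3 regions under every scaling, filter, test and left-out library tried.

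Tet1, which oxidises methylcytosine at CpG-rich promoters (chr10:62804570-62908996, minus strand), showed no fall from P1 that passed. Its cortex levels were 877, 916 and 892 normalized reads in P1 libraries, 930.1, 1012 and 1129.8 in P7 libraries, and 818, 766, 984 and 942 in P14 libraries. Hippocampus P1 (920.3, 1131 and 824.5) and P14 (1254, 1075 and 998) overlapped, with P7 at 1023.5, 1022 and 1056. Olfactory bulb levels were 902, 939 and 998, then 1037, 1029 and 1140.3, then 1133, 1665 and 1386, with every P14 library above every P1 library. Only the olfactory bulb difference passed (0.54 ± 0.14, SE; limma adjusted p = 0.0075). The difference was -0.04 ± 0.10 (0.776) in cortex, where TMM scaling gave 0.24, and 0.22 ± 0.14 (0.219) in hippocampus, where quantile normalization gave -0.13. From P7 to P14 Tet1 differed in cortex by -0.23 (limma adjusted p = 0.0815). That fall passed under quantile normalization (-0.38), without P14 replicate 3 (-0.28) and without the 2 cortex P14 libraries with Ddx3y reads (-0.37; limma adjusted p = 0.0070, 0.0406 and 0.0193). The same step in olfactory bulb gave 0.37 (limma adjusted p = 0.0544), which passed under 4 alternatives, at 0.51 without P14 replicate 1 (0.0088).

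Within a library, Tet1 took a growing share of the TET family. Of the summed TET level per kilobase of annotated exon, Tet1 made up 44.4% to 48.8% in the cortex libraries at P1, 54.7% to 61.2% at P7 and 63.1% to 65.0% at P14. The hippocampus ranges were 44.6% to 50.03%, 56.3% to 61.3% and 59.2% to 76.5%, and the olfactory bulb ranges 37.9% to 39.5%, 44.1% to 49.6% and 65.1% to 70.3%. P1 and P14 did not overlap in any region, and these shares do not depend on a library's scaling factor. Tet3 shrank from 27.1% ± 2.3 (SD, n = 3) to 16.3% ± 0.3 (n = 4) in cortex, from 25.1% ± 2.7 to 14.4% ± 4.8 (n = 3 each) in hippocampus, with 27.1% ± 2.1 and 11.8% ± 1.5 (n = 3 each) for the olfactory bulb. In the P28 controls, whose tables were made separately, Tet1 made up 45.3% to 63.8% in cortex, 47.6% and 50.7% in hippocampus, and 53.8% to 69.7% in olfactory bulb.

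**Figure D3:**
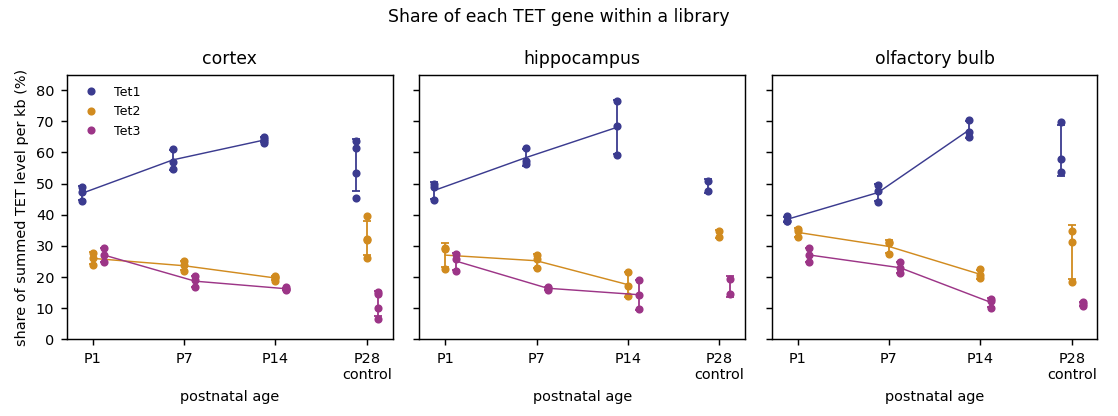
Share of Tet1, Tet2 and Tet3 in the summed TET level per kilobase of annotated exon within each library (y axis, percent) by age (x axis), with 1 panel per region. Points are libraries and bars are 1 SD around the mean; the P28 controls come from separate tables and are not joined to the other ages. Tet1 lies between 37.9% and 50.03% at P1 and between 59.2% and 76.5% at P14.

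Of the readers, Mbd2, the methyl-CpG-binding subunit of NuRD, rose in every region. Cortex libraries went from 107, 125 and 159 normalized reads at P1 through 164, 182 and 173 to 376, 343, 362 and 346 at P14. Hippocampus libraries went from 84.8, 100.2 and 94.0 through 138, 128 and 120.2 to 361, 335 and 331. In the olfactory bulb P1 (76.7, 99.5 and 75.005) and P7 (84.2, 83.6 and 80.1) overlapped, and P14 reached 163, 203 and 214. Every P14 library lay above every P1 and P7 library of its region. Between P1 and P14 Mbd2 differed by 1.46 ± 0.13 (log2, SE; limma adjusted p = 4.3e-07) in cortex, by 1.87 ± 0.18 (4.9e-06) in hippocampus, and by 1.198 ± 0.20 (4.7e-04) in the olfactory bulb. Mature oligodendrocyte markers rose in the same libraries, with 6 of 7 tested higher in cortex and 4 of 4 in each of the other regions. Their summed level ranged over 336 to 394 at P1 and 15297 to 26089 at P14 (cortex), 76.9 to 93.6 and 1603 to 2312 (hippocampus), and 103 to 200.8 and 1933 to 2242 (olfactory bulb). At P14 the myelin genes Opalin and Mog were at 0 in hippocampus and Opalin and Mag in the olfactory bulb; in the same span 9 of 9 microglia markers tested were higher in cortex, with 3 of 6 for hippocampus and 5 of 5 for the olfactory bulb. The microglia sums went from between 387 and 604 to between 1334 and 2926 (cortex), from between 98.9 and 139.6 to between 230.02 and 636 (hippocampus), and from between 45.2 and 56.3 to between 300.1 and 453 (olfactory bulb). Of the endothelial markers tested, 7 of 7 were higher in the olfactory bulb (sums of 22.5 to 27.0 and 147 to 1236), 1 of 8 in cortex and 0 of 6 in hippocampus, where 2 were lower. The part of oligodendrocyte, microglia or endothelial RNA in the Mbd2 values was not tested.

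Mbd1, a reader with CXXC domains besides its methyl-binding domain, was a low-count gene with 13 to 178 reads per developmental library. In cortex it measured 41.8, 44.1 and 43.6 normalized reads at P1 and 29.5, 21.4, 33.7 and 23.4 at P14. The cortex fall of -0.68 ± 0.24 (SE; limma adjusted p = 0.0215) was lost under TMM scaling and quantile normalization, and without cortex P1 replicate 2 or 3 (adjusted p = 0.0617 and 0.0572). Hippocampus differed by -0.40 ± 0.37 and olfactory bulb by -0.50 ± 0.51 (limma adjusted p = 0.392 and 0.427), with overlapping libraries. In the olfactory bulb the P14 libraries held 27.8, 103 and 18.05 normalized reads. Without the second, the difference was -1.22 (limma adjusted p = 0.0045), and without the third it was 0.01.

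**Figure D4:**
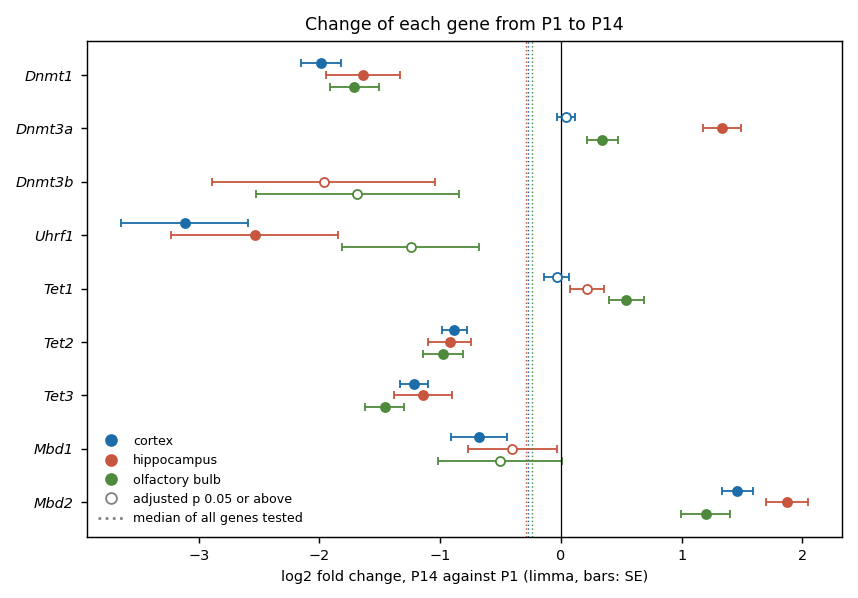
Log2 fold change from P1 to P14 (x axis) of each gene (y axis) in cortex (blue), hippocampus (red) and olfactory bulb (green), with the SE from limma. Filled points have an adjusted p under 0.05, open points do not, and dotted lines mark the median of all tested genes in each region; Dnmt3b in cortex was below the filter. Dnmt1, Tet2 and Tet3 lie left of the dotted lines and Mbd2 right of them in every region.

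Single steps of age were compared next. From P1 to P7, 4 of 8 tested genes passed in cortex (background 33.7% of all genes), while hippocampus gave 2 of 9 (18.1%) and the olfactory bulb 1 of 9 (10.6%). From P7 to P14 the counts were 7 of 8 (49.8%), 4 of 9 (30.1%) and 4 of 9 (47.0%). Dnmt1 fell between P7 and P14 by 1.64 (log2) in the olfactory bulb and by 1.06 in cortex (limma adjusted p = 9.6e-05 and 1.8e-04), and Tet3 fell by 1.11 and 0.57 (2.4e-04 and 0.0012). In hippocampus Dnmt1 differed by -0.93 (limma adjusted p = 0.0396), a call lost in 8 of 15 alternatives, among them leaving out P7 replicate 1, 2 or 3 or P14 replicate 2 (values from -1.03 to -0.79) or P14 replicate 3 (-0.55). The hippocampus Tet3 difference of -0.37 did not pass (limma adjusted p = 0.266), and without P14 replicate 3 it was -0.63 and passed (0.0413). Mbd2 rose over that step by 1.04 (cortex), 1.40 (hippocampus) and 1.21 (olfactory bulb; limma adjusted p = 2.8e-05, 1.9e-04 and 6.4e-04).

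Ranked per kilobase of exon, the genes changed places between P1 and P14. In cortex at P1 Dnmt3a led (67.5 ± 3.6 normalized reads per kb, SD, n = 3), followed by Tet1 (57.9 ± 1.3) and Dnmt1 (53.0 ± 3.9) with no overlap of libraries; Dnmt1 and Mbd2 (40.6 ± 8.2) overlapped, as did Mbd2 and Tet3, and Tet3 and Tet2. At P14 Mbd2 led (111 ± 4.8, n = 4), followed by Dnmt3a (69.4 ± 1.7) and Tet1 (56.8 ± 6.6), while Tet2, Tet3 and Dnmt1 (17.5, 14.4 and 13.5) overlapped as neighbours. In hippocampus Tet1 (62.0 ± 10.1) and Dnmt1 (48.2 ± 5.8) led at P1 and overlapped, and Mbd2 (107 ± 5.0) led at P14. In olfactory bulb Tet1 led at both ages (61.2 ± 3.1 and 90.2 ± 17.2), overlapping Tet2 at P1. Dnmt3b was last in every region at both ages. Exon lengths are those of all annotated transcripts, and the transcripts in use were not resolved.

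Partner genes were counted by the same rule, and the counts are to be read against the 40.3%, 28.5% and 31.4% of all genes that were lower, and the 24.0%, 21.0% and 24.8% that were higher, in cortex, hippocampus and olfactory bulb. Genes that work with the maintenance enzymes were mostly lower at P14. Of 11 partners of DNMT1 and UHRF1, 8 of 10 tested fell from P1 in cortex, 7 of 10 in hippocampus, with 10 of 11 for the olfactory bulb, and none rose; the list's median log2 difference was -1.25, -0.91 and -1.34 against -0.27, -0.29 and -0.24 for all genes. Hells, a chromatin remodeller needed for DNA methylation, went from 42.1 to 2.91 normalized reads in cortex means (-3.61 ± 0.44, SE; limma adjusted p = 8.9e-06). In the order cortex, hippocampus, olfactory bulb, its partner Cdca7 changed by -1.94, -2.40 and -1.68 and the replication ligase Lig1 by -2.22, -1.03 and -1.86. Pcna, lower in each region, is counted both in this list and among the S-phase genes above, so the lists are not independent. The part of dividing cells in the values of this list was not tested. Of 8 partners of de novo methylation, 6 of 7 tested fell in cortex, 5 of 7 in hippocampus, with 6 of 7 for the olfactory bulb, where the histone demethylase Kdm1b was higher. Zfp57, a zinc finger protein that keeps imprinted regions methylated, was counted in that list although this role is upkeep of methylation. It showed the largest fall of the list, from a cortex mean of 546 to 5.90 (-6.82 ± 0.66, limma adjusted p = 1.0e-06). The polycomb methyltransferase Ezh2 fell from 364 to 83.4 (-2.11 ± 0.12, limma adjusted p = 8.6e-09).

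Among 20 partners of TET enzymes and genes for removal of oxidised bases, 2 of 12 tested rose and 7 fell in cortex, 1 and 4 of 14 in hippocampus, and 0 and 6 of 14 in the olfactory bulb; the hippocampus share of falls is near that of all genes. Ogt, the O-GlcNAc transferase that binds TET proteins, fell by 1.39, 2.00 and 2.47 (log2, the same order of regions; limma adjusted p = 1.4e-07, 1.9e-05 and 2.1e-05). Lig3, a ligase of base excision repair, was the other gene lower in all 3 (-0.99, -1.49 and -0.83). The thymine DNA glycosylase Tdg, which excises oxidised bases, was listed at or near 0 (P1 and P14 means of at most 0.119 normalized reads) and could not be tested. The counter is not given in the sources used here, so absent Tdg RNA and uncounted reads cannot be told apart.

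Of 8 other methyl-CpG readers, 1 rose in each region and 4, 2 and 5 fell in cortex, hippocampus and olfactory bulb. Zbtb4, a zinc finger reader, rose by 0.84, 0.93 and 1.38 (limma adjusted p = 2.0e-04, 0.0035 and 0.0013). Of the 12 NuRD subunits tested, 8, 7 and 7 fell and none rose, while their partner Mbd2 rose; Chd5, a remodeller typical of neurons, fell by 3.596, 3.18 and 3.26 and the histone deacetylase Hdac2 by 1.27, 1.36 and 2.35.

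Genes that supply the methyl group moved both ways. In cortex 3 of 11 tested rose and 3 fell, in hippocampus 3 and 3 of 13, and in the olfactory bulb 3 and 2 of 11. The shares of rises are near those of all genes, and the shares of falls are no higher than those of all genes. Ahcyl1, a relative of the enzyme that clears S-adenosylhomocysteine, rose from a cortex mean of 1801 to 9285 (2.38 ± 0.11, SE; limma adjusted p = 8.1e-10) and Ahcyl2 from 205 to 697 (1.76 ± 0.10, 4.8e-09). Of 12 germline genes commonly silenced by promoter methylation, 2 (Sycp3 and Tdrkh) passed the filter in each developmental table. Tdrkh was not called between P1 and P14 in any region. Sycp3, a protein of the meiotic chromosome axis, rose from 39.8 to 244 in cortex means, with 17.4 and 352 for hippocampus and 11.4 and 206 for the olfactory bulb (log2 differences 2.61, 4.28 and 4.07; limma adjusted p = 9.2e-09, 1.2e-06 and 2.2e-06). DNA methylation itself was not measured.

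The genes whose levels ran most like each member were found by Pearson r over the 10 cortex, 9 hippocampus and 9 olfactory bulb developmental libraries, averaged over regions, among 10441 genes. These libraries share age and depth differences, so r is a description only. Uhrf1 was nearest to Tyms (mean r 0.95), Prdm4 (0.91) and Rrm1 (0.89), of which Tyms and Rrm1 make DNA precursors. Dnmt1 was nearest to Myh10 (0.97), Lpgat1 (0.97) and Sh3bp5 (0.96), Tet2 to Zbed4, Lig3 and Zcchc11 (0.95 to 0.96), and Tet3 to Hcfc1, Rnf130 and Mex3b (0.95 to 0.96). Mbd2 was nearest to Acsl3, Lrrc58 and the myelin gene Mbp (0.98 each). The highest values were lower for Dnmt3a (Pura, 0.86), Mbd1 (Mtif2, 0.80) and Tet1 (Prps2, 0.77).

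At P28 the genotype labels were first checked against Gabbr1. Controls held 927 to 1930.1 normalized reads of Gabbr1 in cortex against 89.8 to 211 in cKO, 779.8 and 824 against 152 to 379.9 in hippocampus, and 184 to 318 against 63.6 to 99.5 in the olfactory bulb, with no overlap. The log2 difference was -3.45 ± 0.29 (SE; limma adjusted p = 4.4e-05), -1.84 ± 0.39 (0.936) and -1.48 ± 0.33 (0.877), in that order. None of the 7 DNA methylation genes tested per region passed between cKO and control (limma; 0 of 7 in each region, and 0 at an unadjusted p under 0.05), and edgeR and DESeq2 on recovered reads also called 0. In hippocampus and olfactory bulb Gabbr1 itself did not pass limma, although its libraries did not overlap. The lack of calls there therefore does not show that these genes were unchanged. Of all genes tested, 0.00982% passed in cortex (1 gene, Gabbr1), 0% in hippocampus and 0% in the olfactory bulb, and 221 (2.17%), 296 (2.54%) and 349 (3.02%) had an unadjusted p under 0.05. Dnmt3b and Uhrf1 were below the minimum mean, with at most 23 reads in any P28 library.

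In cortex at P28 the groups overlapped for every gene. Dnmt3a ran from 270.5 to 344 normalized reads in controls (median 281) and from 275 to 301 in cKO (median 281), a difference of -0.04 ± 0.19 (SE). Tet1 ran from 248 to 358 in controls and from 317 to 350.03 in cKO (0.05 ± 0.19), and Dnmt1 from 50.7 to 86.4 and from 30.4 to 91.1 (-0.25 ± 0.36). Tet3 had the largest difference, 0.49 ± 0.37, with 42.3, 42.0, 103 and 124 in controls and 118, 101, 75.9 and 99.8 in cKO. The controls at 42.3 and 42.0 have labels of the first style, without tamoxifen, and those at 103 and 124 of the second. Of the cKO values only 99.8 belongs to the second style, so style and genotype are partly mixed in this difference. The share of Rn45s reads was lower in each second-style library than in any first-style library. With the style as a covariate, or in the first style alone, no DNA methylation gene was called.

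In the hippocampus P28 table, Tet1 held 366 and 411 normalized reads in its 2 control libraries, with 711, 1421, 430.4 and 467 for its 4 cKO libraries. Tet2 held 273 and 310.5 in controls and 483, 1213, 335 and 524 in cKO. All cKO libraries lay above both controls for these 2 genes of 7 tested, an arrangement found for 7.08% of all genes tested there, and the differences of 0.79 ± 0.45 and 0.96 ± 0.45 (SE) were not called (limma adjusted p = 0.936 for both). Replicate 2, the cKO library with little Rn45s and high Xist, was highest for both; without it the differences were 0.43 and 0.59 (limma adjusted p = 0.835 for both). That library also held 1099 of Mbd2 against 257 to 436 in the other cKO libraries, 13.0 of Dnmt1 from 9 reads against 125 to 196, and no Uhrf1 read. It had 2963861 reads in all, the lowest of the hippocampus P28 table, and its part in the differences beyond these values was not tested.

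In olfactory bulb at P28 the groups overlapped for every gene. Mbd2 had the largest difference (-0.57 ± 0.31, SE; limma adjusted p = 0.877), with 311, 437 and 211 normalized reads in controls and 258, 185 and 183 in cKO. Tet1 measured 664, 1118 and 613 in controls and 562, 685 and 552 in cKO (-0.37 ± 0.27), where the high control is replicate 2, the library with little Rn45s. Dnmt3a measured 564, 444 and 423 in controls and 517, 483 and 419 in cKO (-0.01 ± 0.23). Leaving out that control, or any other single library of a P28 table, gave no call among the DNA methylation genes.

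**Figure D5:**
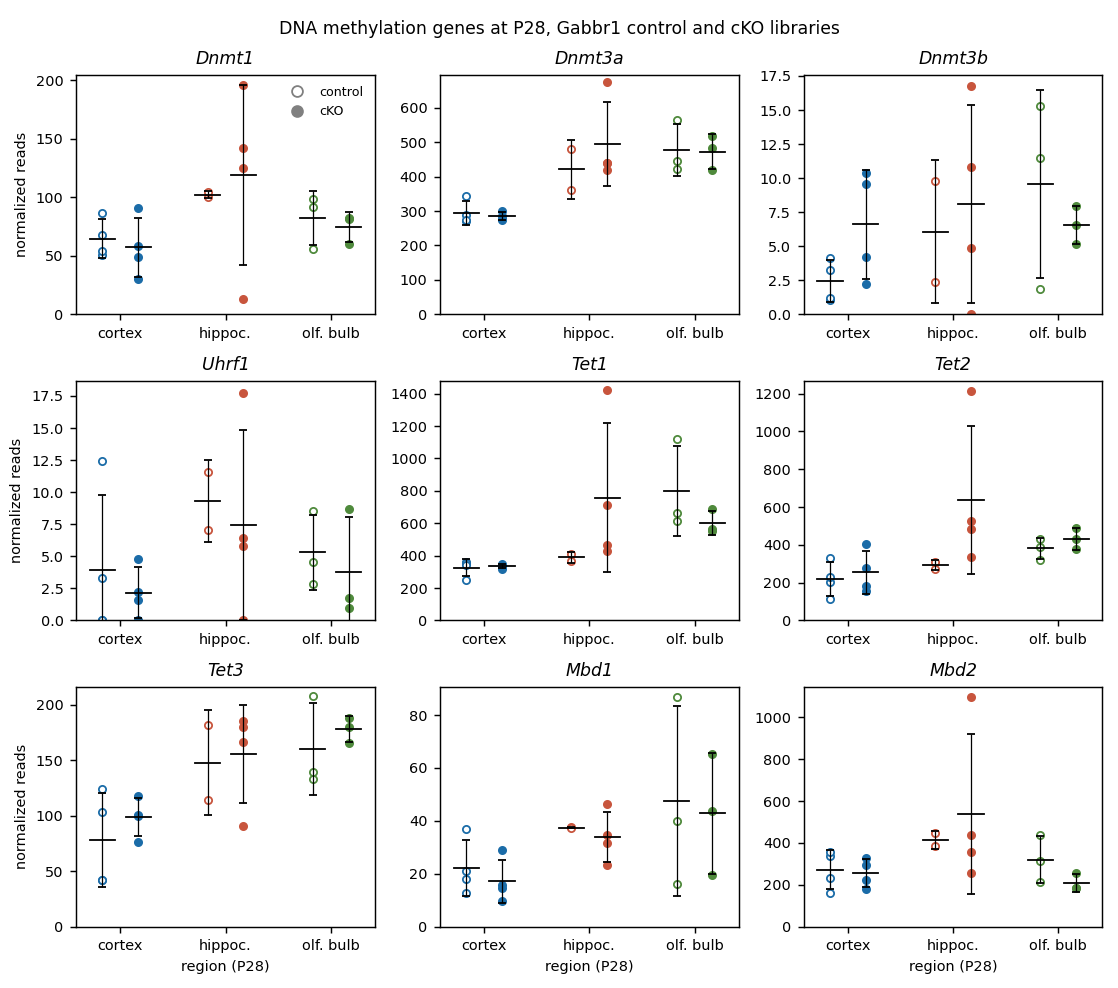
Normalized reads of each gene (y axis, starting at 0) at P28 in control (open) and Gabbr1 cKO (filled) libraries of each region (x axis). Points are libraries, horizontal lines are means and bars 1 SD, cut at 0. Control and cKO overlap except for Tet1 and Tet2 in hippocampus, where cKO replicate 2 reaches 1421 and 1213.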

How the data were processed

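Each deposited value is a normalized signal per gene, made by the authors. Per the submitters' processing notes the tools were FastQC, MultiQC, STAR 2.5.0a and DESeq2 1.20.0 with genome mm10; the counter, strand setting and annotation are not given in the sources used here. Total RNA went into the Trio RNA-seq kit (Nugen), per the labels' protocols. All values of a library were whole multiples of one step (100% within 0.05 reads; a weak check in olfactory bulb P28 cKO replicate 2, whose step is close to 1), so each deposited signal value is a read count over one factor per library. Reads were recovered by that step for edgeR 4.0.16 and DESeq2 1.42.0 as alternatives, with the deposited factors. No replicate pair held identical values. Spreadsheet dates in place of 27 symbols were turned back into symbols.

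Genes with a mean of at least 10 in a table were tested on log2(value + 1) with limma 3.58.1 in R 4.3.3 (lmFit, eBayes with trend), with the 3 ages of a region in 1 fit and each P28 table alone, and Benjamini-Hochberg adjustment over all genes tested; a gene counts as called, higher or lower at an adjusted p under 0.05. A fold change is therefore one of log2(value + 1) and understates the change of low genes. The procedure was tested on simulated data. Within-library ratios use log2(value + 1) and exact permutation tests. Positions and exon lengths are from GENCODE M21 (GRCm38), promoters from RefSeq. All 9 genes are named; of each partner list, up to 3 rises and 3 falls with the largest mean change among genes called alike in all 3 regions, and other genes for single counts; per member, the 3 genes of highest mean r, without predicted genes and pseudogenes. The members and lists were chosen with earlier results of these data known. The alternatives tried were TMM and quantile scaling, a pseudocount of 0.1 or 8, a minimum mean of 100 or none, the count tests, fits of only 2 ages, cortex P14 without libraries with reads of the Y-linked gene Ddx3y, the label style as a covariate in P28 cortex or its first style alone, and leaving out each library.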

Additional observations from a re-analysis of the deposited data

Results flagged for a closer look

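In 36 sets of 4 libraries, 1 gene in 1 group each, 3 had a library far from the rest (a gap above Dixon's 95% critical value); chance gives about 1 in 20. Uhrf1 in cortex P14 replicate 4 was 18.2 normalized reads, against 2.52 to 3.47 in the other 3. Tet1 in cortex P28 control replicate 1 was 248, against 345 to 358. Dnmt3a in hippocampus P28 cKO replicate 2, the library with 0.594% of Rn45s reads, was 676, against 420 (419.7) to 441.

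Dnmt3a moved in opposite directions between regions over the same step of age, with no overlap of libraries within any region. From P1 to P7 the log2 difference was -0.36 (cortex), 0.86 (hippocampus) and 0.55 (olfactory bulb). From P7 to P14 it was 0.40 (cortex), 0.48 (hippocampus) and -0.21 (olfactory bulb), the last not passing limma (adjusted p = 0.206). Under quantile normalization the hippocampus value was 0.046 (limma adjusted p = 0.836) and the olfactory bulb value -0.50 (0.0068). The difference between regions was not tested, since the tables were scaled separately.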

How the results depend on the processing

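Of 949 alternative fold changes of single genes, 876 kept direction and side of the threshold, 48 lost and 18 gained the call, and 7 reversed. All 7 reversals were of differences that had not passed: Tet1 in cortex, P14 against P1, was 0.24 with TMM; Dnmt3a there was -0.077 with quantile normalization; Tet1 in hippocampus was -0.13 with quantile normalization, and -0.30 in P14 against P7. Leaving out 1 library gave -2.9e-04 (without cortex P1 replicate 1) to 0.077 for Dnmt3a in cortex, -0.093 to 0.027 (without cortex P14 replicate 2) for Tet1 in cortex, and -1.22 (without olfactory bulb P14 replicate 2) to 0.0074 (without replicate 3) for Mbd1 in olfactory bulb. The falls of Dnmt1, Tet2 and Tet3 and the rise of Mbd2 from P1 to P14 passed under every alternative run in all 3 regions. All 50 alternatives of the 2 ratios stayed on their side.

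The number of these genes called moved by over 1.5 times in 18 of 185 alternatives. Hippocampus P7 against P1 (2) gave 1 with a pseudocount of 0.1, 1 without a filter, 4 with only the 2 ages, and 1 to 1 on leaving out any single library, each of which ended the Tet3 call. Hippocampus P14 against P7 (4) gave 1 to 6 on leaving out a library: 1 without P7 replicate 1 or 2 and 2 without P14 replicate 2. Olfactory bulb P7 against P1 (1) gave 2 with only the 2 ages and 0 to 1 on leaving out a library. Over all genes, olfactory bulb P7 against P1 called 1214, 2283 with DESeq2 and 3565 with only the 2 ages; hippocampus called 2092 and 4348 with only the 2 ages. At P28, DESeq2 called 22 genes in olfactory bulb and 1 in hippocampus where limma called 0. A minimum mean of 100 left 3986 calls of 7608 (cortex), 3256 of 5732 (hippocampus) and 3413 of 6449 (olfactory bulb) for P14 against P1. With TMM, cortex P7 against P1 gave 2165 higher and 1668 lower against 1850 and 2135, and P14 against P7 gave 3034 and 2718 against 2197 and 3696.

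Low counts limit Dnmt3b, Uhrf1 and Mbd1. No paired analysis was possible because the labels carry no replicate numbers.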
